A study of Mus musculus with 25 samples.

Results

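The genes described here are 10 antioxidant and heme breakdown genes of the mouse, namely Prdx2, Cat, Gpx1, Gpx4, Sod1, Sod2, Hmox1, Hmox2, Blvra and Blvrb, out of 22208 protein-coding genes. They were chosen by name, with earlier results of these data known. Every binding location in the gene body or within 20 kb of either end of it was assigned to the gene. GATA1 and TAL1 were mapped by ChIP-exo, in which an exonuclease trims immunoprecipitated DNA up to the cross-linked protein, so that a bound position is resolved to a few base pairs. For GATA1, G1E-ER4 cells gave 3 libraries at each time (0, 3 and 24 h) and G1E cells gave 1. For TAL1, G1E-ER4 cells gave 5 libraries at 0 h, 3 at 3 h and 3 at 24 h, and G1E cells gave 4. G1E is an erythroid progenitor line of strain 129 that lacks GATA1 and does not mature, and G1E-ER4 is its derivative carrying GATA1 fused to the estrogen receptor domain, which beta-estradiol (10 nM by the labels, while the methods of the study give a higher dose) activates. The 0 h cells carry the fusion without estradiol.

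The binding locations of each factor were deposited as 1 list over all times and libraries, with a position for each entry and no score, tag count or sample. No value below therefore has a replicate error, a level of binding or a time, and the counts are descriptions without a test. Whether the single GATA1 library from G1E cells entered the GATA1 lists is not known, since the labels tie it to them and the study's text names G1E-ER4 cells alone. The lists hold no expression values, so the labelled cell type could not be checked against markers, and the presence of a binding location says nothing on whether the gene was active.

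Red cells carry oxygen on heme iron and are exposed to the superoxide and hydrogen peroxide that arise from it. Superoxide dismutases turn superoxide into hydrogen peroxide, which catalase, peroxiredoxins and glutathione peroxidases remove. Heme oxygenases open the heme ring to give biliverdin, iron and carbon monoxide, and biliverdin reductases reduce biliverdin to bilirubin. GATA1 binds WGATAA (W is A or T), and TAL1 binds DNA with an E-protein partner at E-boxes and is also brought to WGATAA in a complex with GATA1.

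Prdx2, Gpx1 and Blvrb carried most of the binding locations, Cat carried 1 of each factor, Gpx4 carried 2 GATA1 and 1 TAL1 location, Blvra carried TAL1 without GATA1, and Sod1, Sod2, Hmox1 and Hmox2 carried neither. The DNA at the bound positions is shown first because the sites differ in what they hold. The 46 bases around the WGATAA site closest to each position named below are printed from the mm9 genome, 5′ to 3′ along the strand of WGATAA. A site was counted within 40 bp of a position only where the whole motif lay inside that distance, and distances to a site are to its nearer edge. Intron means inside the extent of a protein-coding gene and outside the exons of protein-coding transcripts. Capitals mark WGATAA and, where present, a TG (the last bases of an E-box) with 7 or 8 bp between it and WGATAA.
Prdx2 intron, GATA1 and TAL1, chr8:87495090-87495135, minus strand: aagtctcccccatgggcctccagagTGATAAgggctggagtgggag
Prdx2 intron, TAL1, chr8:87494972-87495017, minus strand: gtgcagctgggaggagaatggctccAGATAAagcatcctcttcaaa
Prdx2 far downstream, GATA1, chr8:87510638-87510683, plus strand: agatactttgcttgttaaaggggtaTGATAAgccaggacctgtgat
Cat intron, GATA1, chr2:103324494-103324539, minus strand: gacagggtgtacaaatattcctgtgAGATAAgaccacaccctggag
Gpx1 downstream cluster, TAL1, chr9:108243339-108243384, minus strand: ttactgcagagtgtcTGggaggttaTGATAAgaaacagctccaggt
Gpx1 window in Usp4, GATA1 and TAL1, chr9:108252235-108252280, plus strand: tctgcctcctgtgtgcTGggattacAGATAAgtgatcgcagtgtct
Gpx4 intron, GATA1, chr10:79511743-79511788, minus strand: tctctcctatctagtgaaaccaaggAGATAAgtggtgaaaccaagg
Blvrb intron near the start, GATA1 and TAL1, chr7:28233919-28233964, plus strand: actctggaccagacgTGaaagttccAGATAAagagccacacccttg
Blvrb intron farther in, GATA1 and TAL1, chr7:28244868-28244913, plus strand: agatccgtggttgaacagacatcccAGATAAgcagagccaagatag
Blvrb far downstream, GATA1, chr7:28263750-28263795, plus strand: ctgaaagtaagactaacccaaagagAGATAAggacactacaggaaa

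Positions without WGATAA are shown to set against these, as the 61 bases centered on the binding location on the plus strand. Capitals mark WGATA, the same core without its last A, or its reverse complement.
Gpx1 downstream cluster, GATA1, chr9:108243266-108243326, plus strand: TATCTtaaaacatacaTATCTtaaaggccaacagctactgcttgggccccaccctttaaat
Gpx4 window in Sbno2, TAL1, chr10:79534102-79534162, plus strand: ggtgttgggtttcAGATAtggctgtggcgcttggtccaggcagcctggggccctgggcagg
Cat intron, TAL1, chr2:103323969-103324029, plus strand: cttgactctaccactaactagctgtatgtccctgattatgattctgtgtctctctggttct
Blvra intron, TAL1, chr2:126906821-126906881, plus strand: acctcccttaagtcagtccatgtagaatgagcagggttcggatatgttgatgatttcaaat

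In all, 11 of 10290 GATA1 and 23 of 15209 TAL1 binding locations lay at the 10 genes. A GATA1 location was found at 5 of the 10 genes, while 30.1% of all protein-coding genes had one. A TAL1 location was found at 6 of the 10, while 27.5% of all genes had one. The same 5 genes with GATA1 also had TAL1, beside 21.5% of all genes with both. The 10 windows, of a median 49.8 kb (55.5 kb for all genes), held 0.198 GATA1 locations per 10 kb, against 0.0734 over the windows of all genes, and 0.415 TAL1 locations per 10 kb, against 0.105. Each density divides the summed locations by the summed windows, so that genes with long windows weigh more in it. The densities at the 10 genes rest on Prdx2, Gpx1 and Blvrb. These 3 genes held 8 of the 11 GATA1 and 20 of the 23 TAL1 locations. Counted per gene, the mean over all genes was 0.628 GATA1 and 0.902 TAL1 locations, beside 11 and 23 at the 10 genes together. The median over the 10 genes was 0.5 GATA1 and 1 TAL1 location, and the median over all genes was 0 for either factor.

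**Figure D1:**
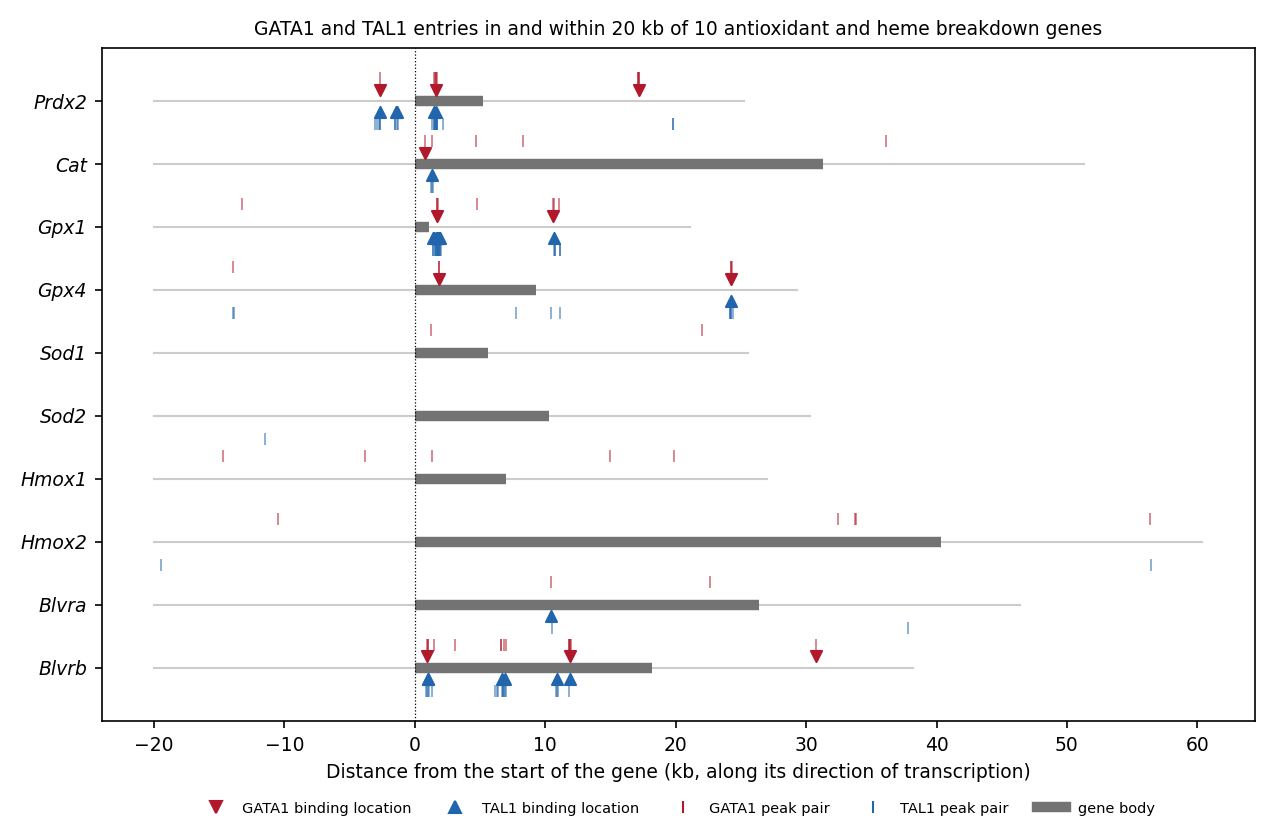
Binding locations (triangles) and peak pairs (ticks) of GATA1 (red, above each gene) and TAL1 (blue, below it) at the 10 genes, by distance in kb from the start of the gene, with the gene body in dark gray and 20 kb on either side in light gray. Prdx2, Gpx1 and Blvrb hold 8 of the 11 GATA1 and 20 of the 23 TAL1 binding locations, and Sod1, Sod2, Hmox1 and Hmox2 show peak pairs without any binding location.

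The binding locations are those called by MultiGPS, which models the tag distribution, with a peak pair within 100 bp. Peak pairs are matched peaks on opposite strands and mark single cross-linking points, so that several can belong to 1 location. By MultiGPS alone there were 13 GATA1 and 26 TAL1 locations at the 10 genes, again at 5 and 6 of them, while 34.3% of all genes had a GATA1 and 31.5% a TAL1 location of this kind. GATA1 peak pairs numbered 58 and lay at 9 of the 10 genes, where 57.4% of all genes had one. TAL1 peak pairs numbered 80 and lay at 8 of the 10, where 61.2% of all genes had one. Sod2 was the gene without a GATA1 peak pair, and Sod1 and Hmox1 were those without a TAL1 peak pair.

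**Figure D2:**
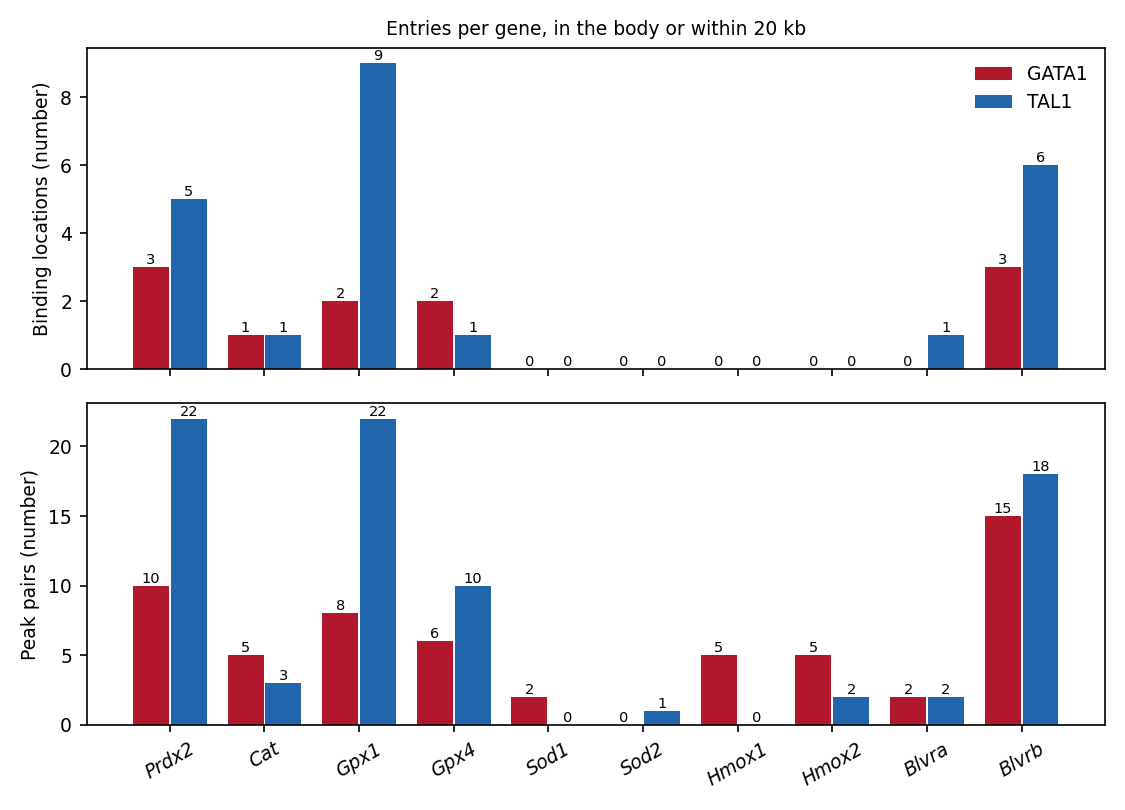
Number of binding locations (top) and of peak pairs (bottom) of GATA1 (red) and TAL1 (blue) at each of the 10 genes, in the gene body or within 20 kb, with the number above each bar. TAL1 binding locations range from 0 at 4 genes to 9 at Gpx1, and GATA1 binding locations from 0 at 5 genes to 3 at Prdx2 and Blvrb.

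Prdx2 encodes the abundant cytosolic peroxiredoxin of red cells, which reduces hydrogen peroxide with electrons from thioredoxin. The gene spans chr8:87493486-87498733 on the plus strand. It had 3 GATA1 and 5 TAL1 locations, counts that 7.41% and 6.32% of all genes reached or exceeded. The factors met in its own intron, where GATA1 lay 1614 bp and TAL1 1606 bp downstream of the start, 8 bp apart. A second TAL1 location lay 114 bp away from the first, at 1492 bp, with a WGATAA site of its own 9 bp from it. This stretch of 122 bp held 3 WGATAA sites within 40 bp of its ends, with 5 GATA1 and 8 TAL1 peak pairs within 100 bp.

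The other locations of the Prdx2 window lay outside the gene. GATA1 and TAL1 lay 16 bp apart, 2706 and 2690 bp upstream of the Prdx2 start, in an intron of the oppositely transcribed Rnaseh2a, which encodes a subunit of ribonuclease H2. GATA1 there was 5 bp from an annotated start site of Rnaseh2a, closer than to any start site of Prdx2. A WGATAA site lay 33 bp from this GATA1 location, and its sequence, which overlaps an untranslated exon, is not printed. A pair of TAL1 locations, 1482 and 1393 bp upstream, had no GATA1 location closer than 1224 bp, no GATA1 peak pair closer than 1153 bp and neither WGATAA nor WGATA within 40 bp. The third GATA1 location, 17162 bp downstream of the start, had 3 WGATAA sites within 40 bp, and the closest start site was that of Hook2, 3846 bp away. TAL1 was called 10 bp from it by MultiGPS, without a TAL1 peak pair closer than 2601 bp, and so was not among the TAL1 binding locations.

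Cat encodes catalase, the heme enzyme that splits hydrogen peroxide into water and oxygen, and spans chr2:103294006-103325317 on the minus strand. It had 1 location of each factor, both intronic and near the start, with GATA1 796 bp and TAL1 1318 bp downstream of it. They were 522 bp apart and so not cooccupied, which requires a distance under 40 bp. The GATA1 location was 7 bp from AGATAA, whereas the TAL1 location had neither WGATAA nor WGATA within 40 bp. A GATA1 peak pair did lie at the TAL1 location, 1338 bp from the start and 6 bp from a TAL1 peak pair. A GATA1 peak pair 8308 bp from the start lay in a coding exon of Cat, 22 bp from a WGATAA site and 7512 bp from the closest GATA1 location.

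Gpx1 encodes the main glutathione peroxidase of the cytosol, a selenoprotein that reduces hydrogen peroxide with glutathione, and spans chr9:108241607-108242671 on the plus strand. Its 9 TAL1 locations were the most among the 10 genes, and 1.91% of all genes had at least as many. Of these, 8 formed a cluster of neighbors under 500 bp apart that ran over 605 bp, between 296 and 901 bp past the end of the gene. Among the 2906 TAL1 clusters of the genome, 4.34% had 8 or more locations and 45.4% had 2. The cluster lay outside protein-coding genes, and Gpx1 had the closest start site for each of its locations. It held 17 TAL1 peak pairs within 100 bp of its ends but 3 GATA1 peak pairs and a single GATA1 location, 625 bp past the end of the gene and 7 bp from TAL1.

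The stretch of the Gpx1 cluster and its flanks of 40 bp held 1 WGATAA and 4 WGATA sites. The GATA1 location had no WGATAA within 40 bp, and the sequence printed above shows 2 copies of WGATA to its left. Another copy lay to its right, within 40 bp but past the end of the printed bases. WGATAA lay instead 11 bp from the TAL1 location 699 bp past the end of the gene, which had no GATA1 location closer than 74 bp and a GATA1 peak pair at 7 bp. That site had TG with 8 bp between it and WGATAA. The other GATA1 and TAL1 locations of the Gpx1 window, 10618 and 10637 bp from the start and 19 bp apart, lay in an intron of Usp4, which encodes a ubiquitin-specific protease. They shared a WGATAA site with TG at 7 bp, 35 bp from GATA1 and 16 bp from TAL1, and the closest start site was that of Usp4.

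Gpx4 encodes the glutathione peroxidase that reduces lipid hydroperoxides in membranes, and spans chr10:79509911-79519184 on the plus strand. GATA1 was located inside the gene extent, 1841 bp downstream of the gene start and 6 bp from AGATAA, with 2 GATA1 peak pairs at 9 bp on either side. The closest start site of a protein-coding transcript, also of Gpx4, lay 4481 bp farther along the gene, so that GATA1 was upstream of it. The closest TAL1 location was 22380 bp away and the closest TAL1 peak pair 5905 bp. The other GATA1 location of the window lay 24253 bp from the start, in an intron of Sbno2, 32 bp from TAL1. Neither of these had WGATAA within 40 bp, and WGATA was present near TAL1. The factors also had peak pairs 4 bp apart and beside WGATAA, 13943 and 13947 bp upstream of Gpx4, where neither had a binding location.

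**Figure D3:**
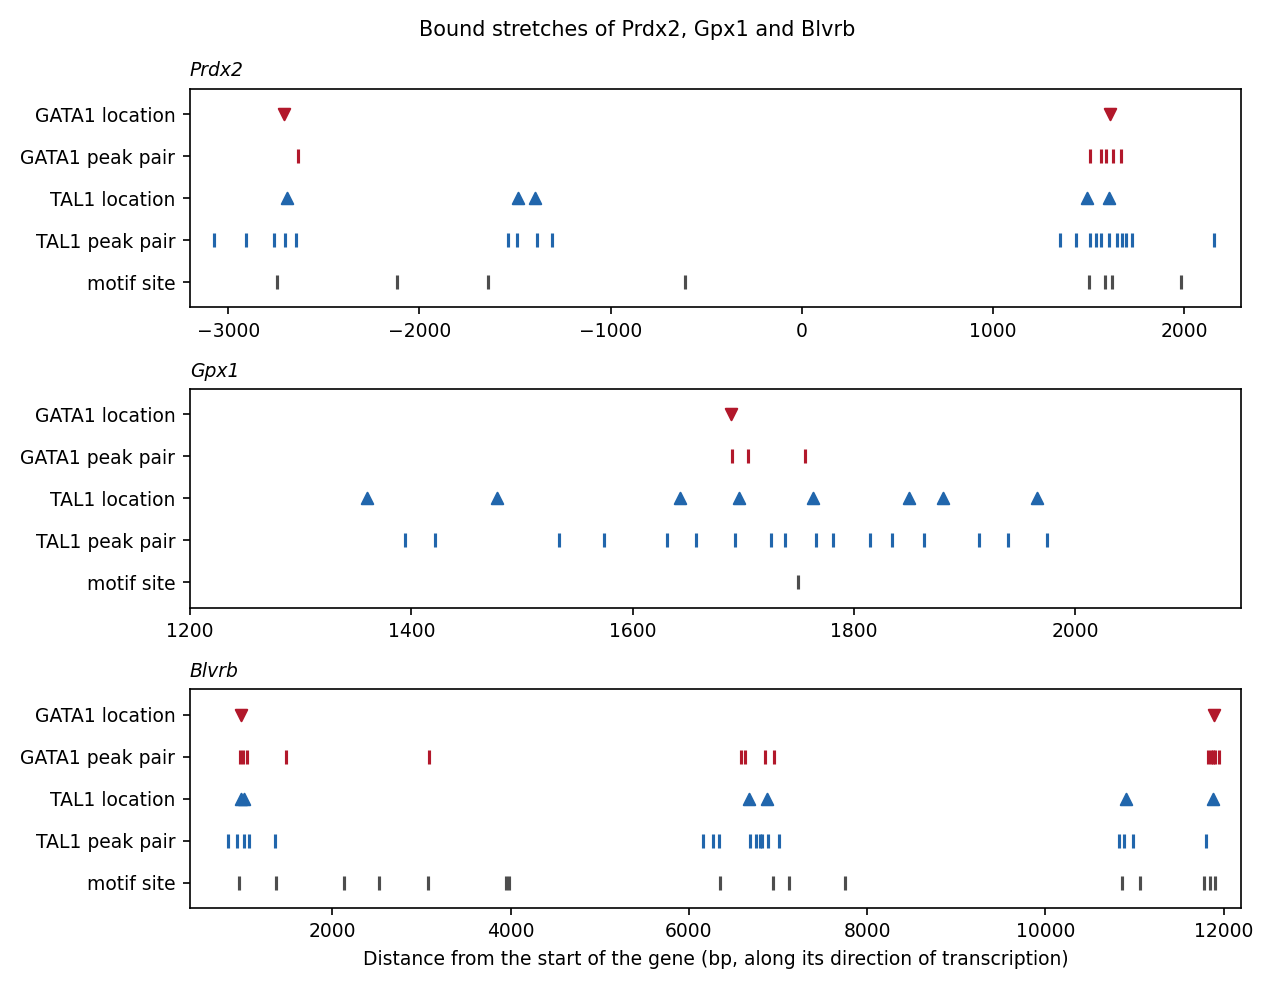
GATA1 and TAL1 binding locations (triangles), peak pairs (ticks) and WGATAA sites (gray ticks, motif site) in the bound stretches of Prdx2 (top), Gpx1 (middle) and Blvrb (bottom), by distance in bp from the start of the gene. In Prdx2 and Blvrb the GATA1 locations lie under 40 bp from TAL1 locations, and at Gpx1 the 8 TAL1 locations run over 605 bp with 1 GATA1 location and 1 WGATAA site among them.

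Blvrb encodes the biliverdin reductase, also known as flavin reductase, that is abundant in red cells. The gene spans chr7:28232997-28251163 on the plus strand. It had 3 GATA1 and 6 TAL1 locations, and 7.41% and 4.76% of all genes had at least as many. Near its start GATA1 lay at 969 bp and TAL1 at 977 bp, 8 bp apart, with a further TAL1 location at 1010 bp. Both of the close locations were nearest to an AGATAA with TG at 8 bp, 17 bp from GATA1 and 25 bp from TAL1. Farther into the gene, GATA1 at 11891 bp and TAL1 at 11881 bp lay 10 bp apart, with AGATAA 5 bp from GATA1, 5 GATA1 peak pairs and 1 TAL1 peak pair within 100 bp.

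Between these, Blvrb held TAL1 locations at 6672, 6878 and 10905 bp without a GATA1 location closer than 986 bp and without WGATAA within 40 bp. GATA1 peak pairs did lie 44, 29 and 914 bp from these TAL1 locations, in that order. At 6744 bp GATA1 was called by MultiGPS, 105 bp from the closest GATA1 peak pair and therefore beyond the limit of 100 bp. The third GATA1 location lay 12617 bp past the end of the gene on an AGATAA, with no TAL1 location or peak pair closer than 18902 bp, and the closest start site was that of Sertad3. At 663, 731 and 736 bp were 2 TAL1 and 1 GATA1 calls of MultiGPS that were not binding locations. All 8 GATA1 and TAL1 binding locations in the Blvrb body lay in introns.

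Blvra encodes the other biliverdin reductase, which acts on the biliverdin isomer that heme oxygenase makes, and spans chr2:126896401-126922820 on the plus strand. It had a single TAL1 location, in an intron 10450 bp from the gene start and 838 bp from the closest annotated start site of Blvra. The closest GATA1 location was 56074 bp away, but a GATA1 peak pair lay at 28 bp. That peak pair was 9 bp from AGATAA, whose edges were 37 and 42 bp from the TAL1 location, so that it was not counted there as a site within 40 bp. Away from this location the Blvra window held 1 more peak pair of each factor.

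Hmox1 encodes the inducible heme oxygenase, and Hmox2 the constitutive one. Hmox1 spans chr8:77617490-77624495 on the plus strand and had 5 GATA1 peak pairs, no TAL1 peak pair and no binding location of either factor. The closest GATA1 location was 1693472 bp from its body, since the gene lay in a stretch of 4.13 Mb without one. Of the 10270 stretches between neighboring GATA1 locations, 84 were at least as long. A long stretch covers more of the genome than a short one, so this is not the share of genes in such stretches. That share was not computed. One of its GATA1 peak pairs lay in the Hmox1 intron, 1341 bp from the start and 3 bp from TGATAA, and another lay 14676 bp upstream, 26 bp from AGATAA. The peak pairs 3858 bp upstream and 14953 and 19896 bp downstream of the start had no WGATAA within 40 bp, and the closest start site for the downstream ones was that of Mcm5.

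Hmox2 spans chr16:4726361-4766742 on the plus strand and had 5 GATA1 and 2 TAL1 peak pairs, with no binding location. A GATA1 and a TAL1 peak pair 34 bp apart lay 56386 and 56420 bp from the start, within an intron of 5730403B10Rik and 6 and 23 bp from AGATAA. The 3 GATA1 peak pairs in the gene body, at 32464, 33753 and 33859 bp, had no WGATAA. The closest GATA1 location was 48439 bp from the gene body and the closest TAL1 location 129951 bp.

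Sod1 encodes the copper and zinc superoxide dismutase of the cytosol, and Sod2 the manganese enzyme of mitochondria. Sod1 spans chr16:90220987-90226567 on the plus strand and had 2 GATA1 peak pairs, 1 in its intron 1232 bp from the start and 1 in an intron of Scaf4, neither with WGATAA. Its closest binding locations were 23218 bp (GATA1) and 37946 bp (TAL1) from the body, outside the 20 kb window. Sod2 spans chr17:13200705-13210985 on the plus strand and had 1 TAL1 peak pair, 11516 bp upstream and 11 bp from TGATAA. The closest GATA1 and TAL1 locations lay 23696 and 23611 bp from its body.

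The WGATAA sites at peak pairs of genes without a GATA1 location are shown. These positions had a site but no binding location of the factor with the peak pair. At Blvra a TAL1 binding location lay 28 bp from the GATA1 peak pair. Capitals mark WGATAA, and none had TG with 7 or 8 bp to the site.
Hmox1 intron, GATA1 peak pair, chr8:77618808-77618853, minus strand: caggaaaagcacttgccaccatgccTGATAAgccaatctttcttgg
Hmox1 upstream, GATA1 peak pair, chr8:77602815-77602860, plus strand: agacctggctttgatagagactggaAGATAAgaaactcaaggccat
Hmox2 window in 5730403B10Rik, GATA1 and TAL1 peak pairs, chr16:4782728-4782773, plus strand: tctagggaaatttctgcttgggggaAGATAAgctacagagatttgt
Sod2 upstream, TAL1 peak pair, chr17:13189175-13189220, plus strand: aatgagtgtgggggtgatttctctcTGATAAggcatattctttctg
Blvra intron, GATA1 peak pair, chr2:126906794-126906839, minus strand: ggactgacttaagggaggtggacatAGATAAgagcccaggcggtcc

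The locations of both factors fell into 16 bound stretches when those under 500 bp apart were joined. Both factors were present in 7 stretches, GATA1 alone in 4 and TAL1 alone in 5. The GATA1 and TAL1 locations at Cat, 522 bp apart, were just past the limit of 500 bp and count as separate stretches. A whole WGATAA lay within 40 bp of 6 of the 7 shared stretches, of all 4 GATA1 stretches and of 0 of the 5 TAL1 stretches, where the AGATAA at Blvra fell just outside this limit. The stretches spanned 0 to 605 bp, so that unlike lengths of DNA were searched. Of the 5 TAL1 stretches 1 had WGATA, and 3, at Prdx2, Cat and Blvrb, had a site by a weight matrix learned from GATA1 locations, which also accepts other letters. The exception among the shared ones was the stretch in Sbno2. None of the 4 GATA1 stretches had a TAL1 peak pair within 100 bp. Of the 5 TAL1 stretches 3, at Cat, Blvra and Blvrb, had GATA1 peak pairs within 100 bp. The same shares were not computed for stretches elsewhere in the genome. Whether these few stretches differ from those is therefore not known.

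Counted by location, 7 of the 11 GATA1 locations (63.6%) at the 10 genes were cooccupied by TAL1, against 35.9% of all GATA1 locations. Conversely, 7 of the 23 TAL1 locations (30.4%) were cooccupied, against 27.5% of all TAL1 locations. The cooccupied GATA1 locations were 7 to 32 bp from TAL1 with a median of 10 bp, against a median of 15 bp for all 3697 of the genome. WGATAA was present at 9 of the 11 GATA1 locations (81.8%), against 66.5% of all, and at 6 of the 23 TAL1 locations (26.1%), against 45.9% of all. The TAL1 count depended on how a site was defined, with 11 of 23 (47.8%) for WGATA, against 65.2% of all, and 12 of 23 (52.2%) for the weight matrix, against 57.6% of all. In windows moved by 1 kb WGATAA was present at 0 of 11 GATA1 and 1 of 23 TAL1 positions, against 8.29% and 8.23% of all positions. The Gpx1 cluster gave 8 of the 23 TAL1 locations and 1 of the 6 with WGATAA, and its locations share DNA and are not independent.

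TG with 7 or 8 bp to WGATAA was found at 3 of the 11 distinct WGATAA sites, the pair at Gpx1, of which the one in the cluster was at a TAL1 location without cooccupancy, and the one near the start of Blvrb. By location it was present at 2 of 9 GATA1 locations with WGATAA, against 28.2% of all such locations, and at 3 of 6 for TAL1, against 50.8%. Among the GATA1 locations with WGATAA it was present at 2 of 5 cooccupied and 0 of 4 others, and the shares over all GATA1 locations were 43.7% and 18.5%. Among the TAL1 locations with WGATAA it was present at 2 of 4 cooccupied and 1 of 2 others, and the shares over all TAL1 locations were 47.3% and 53.3%. The E-box CAGMTG (M is A or C) was within 40 bp of 4 of the 11 GATA1 locations, against 17.2% of all, and of 6 of the 23 TAL1 locations, against 21.7% of all. In windows moved by 1 kb the E-box was at 2 of 11 GATA1 positions (18.2%), against 8.81% of all, and at 3 of 23 TAL1 positions (13.0%), against 9.8% of all, so that the moved windows at the 10 genes also held it at a higher share. No test was made of these counts, each of which rests on few locations.

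Of the 11 GATA1 locations 6 were within 2 kb of an annotated start site, against 17.0% of all GATA1 locations, and of the 23 TAL1 locations 18 were, against 12.8%. The rule for the 10 genes admits only positions within 20 kb of a gene, so nearness to a start site is partly fixed by it. Over all locations in or within 20 kb of a protein-coding gene, a comparison added after the data were seen, the shares were 20.1% for GATA1 and 15.6% for TAL1. Without the 8 locations of the Gpx1 cluster, which are among the 18, 10 of 15 TAL1 locations were within 2 kb of a start site. Introns held 8 of the 11 GATA1 locations, against 56.0% of all, and 15 of the 23 TAL1 locations, against 53.5%. None lay in an exon, where few of all locations lay either. Coding exons held 1.64% of all GATA1 and 1.56% of all TAL1 locations, and untranslated exons 2.41% and 2.38%. The closest start site was that of one of the 10 genes for 6 GATA1 and 18 TAL1 locations, and for the others that of Rnaseh2a, Hook2, Usp4, Sbno2 or Sertad3. TAL1 formed clusters at 16 of its 23 locations (69.6%), against 64.4% of all, and GATA1 at 0 of 11, against 13.7%.

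Over the 10 genes, 29 of the 58 GATA1 peak pairs lay more than 100 bp from a GATA1 location, against 53.9% of all. For TAL1 this was 26 of 80 (32.5%), against 49.9% of all. WGATAA was within 40 bp of 48.3% of the GATA1 peak pairs, against 48.2% of all, and of 26.2% of the TAL1 peak pairs, against 27.4%.

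**Figure D4:**
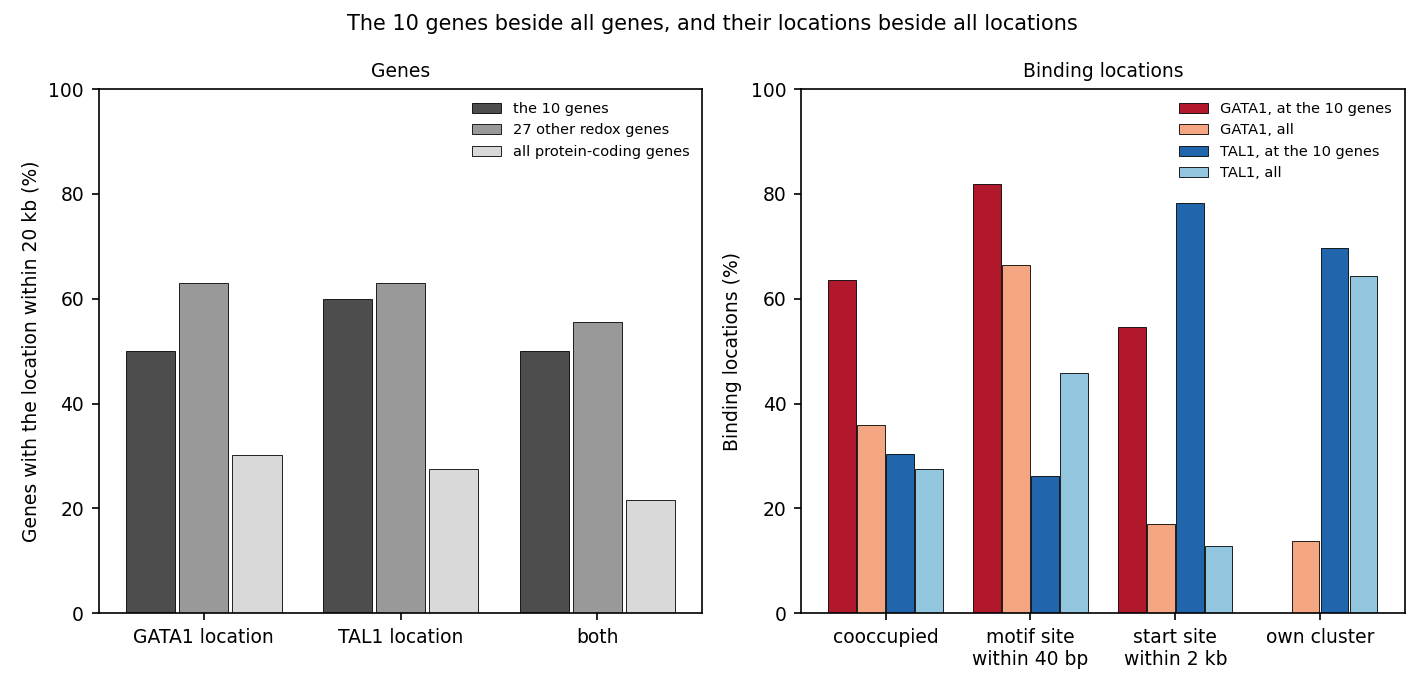
Left, percent of the 10 genes (dark gray), of 27 other redox genes (gray) and of all protein-coding genes (light gray) with a GATA1 location, a TAL1 location or both in the body or within 20 kb. Right, percent of the locations at the 10 genes (dark) and of all locations (light) of GATA1 (red) and TAL1 (blue) that were cooccupied, had WGATAA (motif site) within 40 bp, lay within 2 kb of a start site or lay in a cluster of the same factor. For TAL1 near start sites the bars stand at 78.3% and 12.8%. The choice of locations near genes fixes part of the gap, and over all TAL1 locations in or within 20 kb of a gene the share was 15.6%. Of the 18 locations 8 are the Gpx1 cluster, and without it 10 of 15 were within 2 kb.

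Of 27 other genes of the same pathways, in 3 lists, 17 had GATA1 (63.0%), 17 had TAL1 (63.0%) and 15 had both (55.6%). These shares stand beside 5, 6 and 5 of the 10 genes. For all protein-coding genes, the comparison for each list below as well, they were 30.1%, 27.5% and 21.5%. The windows were of unlike length, up to 105 kb at Por, and were not matched. Of 10 further peroxidase and dismutase genes, 4 had GATA1 and 5 had TAL1. Prdx6, a peroxiredoxin that uses glutathione, had 5 GATA1 and 6 TAL1 locations, and Prdx3, the mitochondrial peroxiredoxin, had 4 and 3. Prdx1 had 2 and 3, and Prdx5 had 1 of each.

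Of 12 genes for thioredoxin and glutathione, 9 had GATA1 and 9 had TAL1. Glrx5, a mitochondrial glutaredoxin needed for iron-sulfur clusters and heme synthesis, had 7 GATA1 and 17 TAL1 locations, numbers that 0.869% and 0.279% of all genes reached. Txnrd2, the mitochondrial thioredoxin reductase, had 4 and 5, and Glrx, the cytosolic glutaredoxin, had 1 and 7. Gclm, a subunit of the enzyme that starts glutathione synthesis, had 3 and 2, and Gss, which completes it, had 2 and 3.

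Of 5 regulators of redox and heme genes, 4 had GATA1 and 3 had TAL1. Bach1, a repressor that heme releases from DNA and that acts on Hmox1 in other settings, had 7 GATA1 and 4 TAL1 locations. Por, the reductase that supplies heme oxygenase with electrons, had 4 and 5, and Nfe2l2, the activator of many antioxidant genes, had 2 and 3. Keap1, which holds Nfe2l2 back, had 1 GATA1 and no TAL1 location.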

How the data were processed

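Positions were taken from the 6 location lists deposited by the authors, in which each entry is a base position in mm9 (unit other, with no score). The authors aligned reads uniquely, merged replicates, called GeneTrack peak pairs over 2-fold above input and MultiGPS locations, and kept as binding locations the MultiGPS calls with a peak pair within 100 bp. The submitters' processing notes name Bowtie 1.00, BWA 0.6.2 and 0.7.9a, CASAVA 1.7 and bcl2fastq 2.15. Depth per library is not in the lists, so no interval was computed.

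Genes were the protein-coding entries of GENCODE vM1 on 20 chromosomes. Locations under 40 bp apart were cooccupied, those of a factor under 500 bp apart were a cluster, and whole motifs were searched on both strands within 40 bp. The genes named are the 10 genes, up to 4 genes per wider list with the most locations and any tied with these, and closest or host genes. Members and lists were chosen with earlier results of these data known. Alternatives were other distances, other lists, motif definitions and a weight matrix of 8 bp learned from 500 GATA1 locations. Shares over all locations for WGATA and the matrix, and those near genes, were added after seeing the data. The counting was tested on simulated data. The software was matplotlib 3.10.9, samtools 1.23.1, pysam 0.24.0, scipy 1.17.1, pandas 2.3.3, numpy 2.4.6 and Python 3.11.15. The authors' tag profiles and expression data were not analysed here.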

Additional observations from a re-analysis of the deposited data

How the results depend on the processing

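The number of genes with GATA1 (5 of 10) was 9 within 50 kb and 9 with peak pairs, and was 4 or 5 in the gene body alone, within 5 or 10 kb, with all MultiGPS locations and with closest start sites only. GATA1 locations (11) numbered 5 in the gene bodies alone, 7 within 5 kb, 19 within 50 kb, 58 as peak pairs and 6 when the closest start site had to be that of the gene. TAL1 locations (23) numbered 10 in the gene bodies alone and 80 as peak pairs, and between 18 and 29 under the other distances and rules. Genes with TAL1 (6) varied between 4 and 8. TAL1 locations with WGATAA (6) were 11 with WGATA and 12 with the weight matrix, which also accepts sites that differ from WGATAA. Cooccupied GATA1 locations (7), GATA1 locations with WGATAA (9), clustered TAL1 locations (16) and sites with TG (3) stayed within 1.5 times under every alternative run. No paired analysis was possible because the lists pool all replicates. Lists without tag counts or depth limit every count here to presence or no call, and a gene without a call was not shown to be unbound.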
